A study of Homo sapiens with 36 samples.

Results

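The 80 cytosolic ribosomal protein genes of the count table were followed across 3 established human head and neck squamous cell carcinoma lines given interleukin-8 (IL-8) or transfected with an ACLY plasmid. They were taken from 58735 genes as the protein-coding genes on numbered chromosomes whose names are RPL or RPS with a number, together with RPLP0, RPLP1, RPLP2 and RPSA. Of these, 43 encode proteins of the large (60S) subunit, 30 encode proteins of the small (40S) subunit, and 7 are paralogs with a close relative among the others (RPL3L, RPL7L1, RPL10L, RPL22L1, RPL26L1, RPL39L and RPS27L). Another 8 genes, on the X chromosome (such as RPL10, RPS4X and RPL36A) or under other names (such as FAU and RACK1), fell outside this choice and are described as a list of their own.

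A ribosome holds a single copy of most of these proteins, so a cell makes them in matched amounts, from mRNAs that are among the most abundant it has. Most of these mRNAs start with a C followed by a run of pyrimidines, the terminal oligopyrimidine (TOP) tract, through which mTORC1 and the RNA-binding protein LARP1 control how well they are translated and how stable they are. The paralogs are used more narrowly: RPL3L in striated muscle, RPL10L and RPL39L mainly in testis, and RPL22L1 in balance with RPL22, whose loss in mice raises Rpl22l1.

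Cal27, HN6 and HN4 cells, all grown in medium with serum depleted of exosomes, were sequenced as 36 libraries in 12 groups of 3. In the IL-8 experiment each line received recombinant IL-8 for 24 h at 100 ng per ml or was left untreated, and the question was how lines with different CXCR1, a receptor of IL-8, respond. The plasmid experiment compared cells transfected with an ACLY plasmid and cells given vector in all 3 lines, and asked which genes follow ACLY, the gene of the enzyme that splits citrate to give acetyl-CoA. The labels number the replicates and give no word on separate cultures, so p-values take in only the spread among libraries, and that spread may be technical. Library totals ran from 16570601 to 20232735 counts, and 3 counts, the limit that a count of 0 allows, equal 0.148 to 0.181 CPM (counts scaled to a common library total).

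Some libraries stood apart or went against their labels. Mitochondrially encoded genes took 1.06% of the counts in replicate 3 of Cal27 with IL-8, against 3.37% and 3.59% in replicates 1 and 2. There 73 of 79 ribosomal protein genes were higher in replicate 3 than the mean of replicates 1 and 2, beside 8776 of 18398 genes tested. The median log2 ratio was 0.57 over members and -0.02 over all genes tested. In replicate 3 of HN4 labelled ACLY the mitochondrial share was 2.15%, against 5.71% and 6.03%, and 26 of 79 members were higher than the mean of replicates 1 and 2. The count over all genes is not reported here for that library. ACLY itself stood at 314 to 370 CPM in HN4 labelled ACLY, and at 1497 to 1515 CPM in HN4 labelled vector, the reverse of the labels, so no direction is attributed to the plasmid in HN4. It stood at 1332 to 1366 CPM in HN4 with IL-8 and at 369 to 380 CPM in untreated HN4.

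In a fit of all 36 libraries, edgeR called 173 of 19349 genes (0.894%) and 0 of 79 members between HN4 labelled ACLY and untreated HN4. At an unadjusted p under 0.05, edgeR had 9 of the 79 members beside 2102 of the 19349 genes. Between HN4 labelled vector and HN4 with IL-8 it called 17 genes (0.0879%) and 1 member. HN6 vector against untreated HN6, and Cal27 vector against untreated Cal27, gave 0 calls each (0% of genes; 668 and 502 genes at an unadjusted p under 0.05), so the line comparisons of both experiments are given side by side and not as independent repeats. In both Cal27 treated groups, 12 genes that untreated HN4 expressed at 20 CPM or more and untreated Cal27 and HN6 at no more than 0.3 CPM were read at a median of 0.268 to 0.311 (IL-8) and 0.542 to 0.548 (ACLY plasmid) of their HN4 level, and at 0 to 0.00049 of it in the Cal27 controls. For 13 genes of Cal27 alone the ratios to untreated Cal27 were 0.543 to 0.641 with IL-8 and 0.231 to 0.258 with the ACLY plasmid. Every Cal27 treatment result below was measured in libraries with these values.

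Of 9 squamous epithelial markers, 9 reached 1 CPM in untreated Cal27, 8 in HN6 and 8 in HN4. KRT14 was under 1 CPM in HN6 and at 0 in HN4. Over all libraries the markers summed to 3799 to 7659 CPM in Cal27, 1993 to 2491 CPM in HN6 and 1035 to 1096 CPM in HN4. Fibroblast markers summed to 5.36 to 60.5 CPM, with 2 or 3 of 6 at 1 CPM, endothelial markers to 3.68 to 29.8 CPM, with 1 or 2 of 3, and leukocyte markers to 2.59 to 8.49 CPM, with 1 of 4. In such bulk libraries fewer cells of a kind and less RNA per cell cannot be told apart.

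The start of each mRNA is shown first because the TOP tract is what most members share and what most paralogs lack. Windows of 30 bases, 10 before the annotated first base and 20 from it, are given 5′ to 3′ on the sense strand from RefSeq (GRCh38.p14) for the paralogs RPL22L1, RPL26L1, RPS27L and RPL7L1, for the parents RPL22, RPL26 and RPS27, and for RPSA and RPS28, members whose levels differed between lines. Capitals mark the longest run of C and T found within 20 bases on either side of the first base. In RPL26L1 that run, of 6 bases, begins before the window, in RPS27L a run of 4 lies outside it, and in RPL7L1 no run is longer than 2 bases, so none is marked.
RPL22: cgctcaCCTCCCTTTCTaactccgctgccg
RPL22L1: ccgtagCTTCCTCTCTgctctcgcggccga
RPL26: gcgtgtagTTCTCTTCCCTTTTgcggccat
RPL26L1: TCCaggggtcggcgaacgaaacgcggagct
RPS27: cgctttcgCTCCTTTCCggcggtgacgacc
RPS27L: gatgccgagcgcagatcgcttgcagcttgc
RPL7L1: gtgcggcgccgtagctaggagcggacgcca
RPSA: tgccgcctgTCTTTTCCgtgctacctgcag
RPS28: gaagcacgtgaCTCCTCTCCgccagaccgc

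These windows lie at chr1:6199576-6199605 (RPL22, minus strand), chr3:170870176-170870205 (RPL22L1, minus), chr17:8383174-8383203 (RPL26, minus), chr5:172958719-172958748 (RPL26L1, plus), chr1:153990752-153990781 (RPS27, plus), chr15:63157458-63157487 (RPS27L, minus), chr6:42879606-42879635 (RPL7L1, plus), chr3:39406710-39406739 (RPSA, plus) and chr19:8321486-8321515 (RPS28, plus). The motif searched was a C at the annotated first base followed by at least 4 bases that are C or T, on the sense strand. It was present in 40 of 58 members other than paralogs with a window (69.0%), in 1 of 5 paralogs (20%), in 5 of 69 mitochondrial ribosomal protein genes (7.2%) and in 655 of 14833 other protein-coding genes (4.4%). RPL22L1 was the paralog with the motif; its run of 10 pyrimidines compares with a run of 11 in RPL22. With 5 bases of tolerance around the first base, 48 of 58 members other than paralogs held the motif (82.8%), and 3256 of 14833 other genes (22%). A match is a description of these letters, and its absence says only that they are not in the window.

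As counted, levels within a line spread widely although the proteins are needed in matched amounts. Over the 68 members that are not paralogs and share less than 40% of their exon length with another gene on the same strand, the median level in CPM per kilobase of the principal transcript was 910 in untreated Cal27, 635 in untreated HN6 and 976 in untreated HN4. The level at the 90th percentile was 6.65 times that at the 10th in Cal27, 6.41 times in HN6 and 7.01 times in HN4. The highest member was RPS3, a protein of the mRNA entry channel, at 2536 CPM per kilobase in Cal27, RPLP0, the core of the P stalk that recruits elongation factors, at 1637 in HN6, and RPL41, the smallest ribosomal protein, at 2228 in HN4. Among the lowest were RPS28 at 55.0 CPM per kilobase in Cal27 and 39.6 in HN6, and RPS23 at 86.4 in HN4. Members with reads on pseudogenes were kept, among them RPS28, whose pseudogene counts were 152% of its own over all libraries. How far the assignment of reads to pseudogenes set this spread was not tested.

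All paralogs stood below those medians. In CPM per kilobase, RPL7L1 averaged 62.7 in untreated Cal27, 84.8 in HN6 and 44.2 in HN4, against 917, 631 and 1077 for its parent RPL7 in the same order of lines. RPL22L1 averaged 23.4, 18 and 19.2, against 98.9, 98.1 and 113 for RPL22. RPL26L1 averaged 59.2, 39.6 and 53.3 and RPL26 47.4, 88.8 and 52.9, a pair between which the counting could split reads. RPL26 also shares over 40% of its exon length with another gene on the same strand. Its pseudogene counts were 16.5% of its own over all libraries. RPS27L averaged 6.01, 4.30 and 7.75, against 1307, 625 and 1304 for RPS27. RPL3L was at or near the limit of detection, with 0.421 to 0.958 CPM in untreated Cal27, 0 to 0.114 CPM in untreated HN6 and 0.113 to 0.255 CPM in untreated HN4. RPL10L had 1 read in all 36 libraries and was not tested, which leaves 79 members in every test.

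The sum over members was lowest in HN6. Members took 6.23%, 5.54% and 5.90% of the counts in untreated Cal27, 4.28%, 3.85% and 4.23% in untreated HN6, and 5.86%, 5.80% and 5.90% in untreated HN4. The HN6 libraries did not overlap those of the other lines, and the Cal27 and HN4 libraries overlapped.

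**Figure D1:**
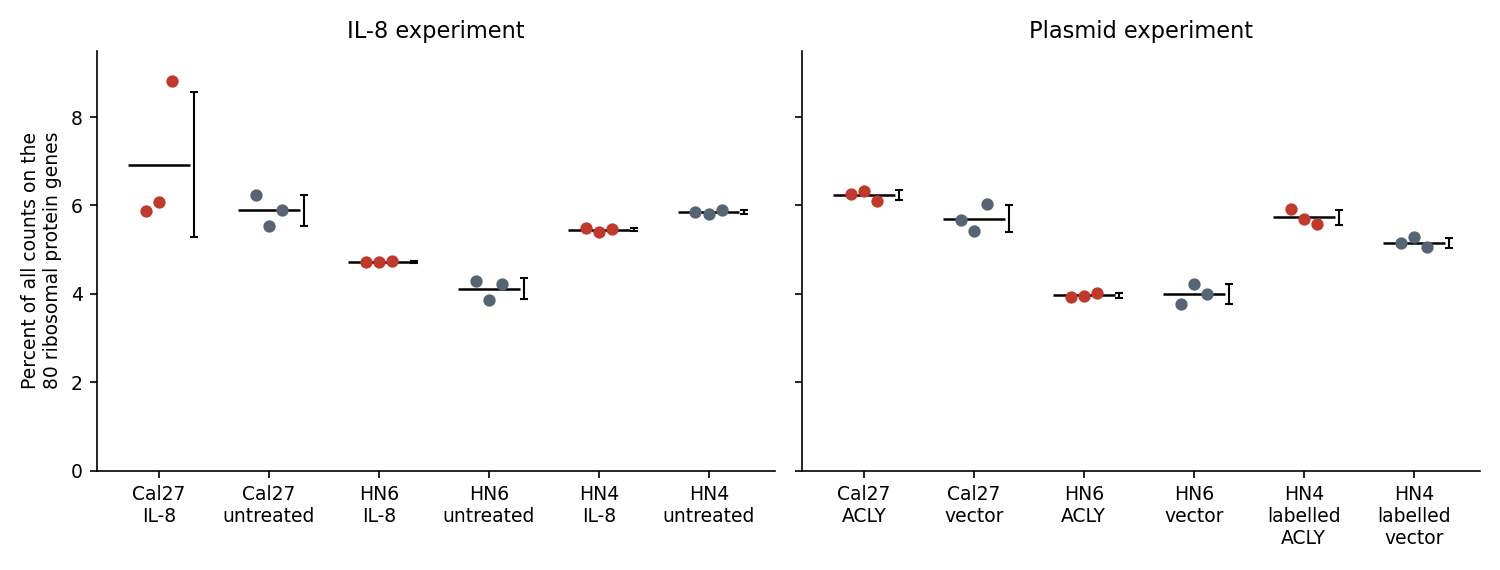
Share of all counts (percent) on the 80 ribosomal protein genes in each library (points; red with IL-8 or ACLY plasmid, grey untreated or vector), with the group mean (line) and SD (bar, n = 3). Replicate 3 of Cal27 with IL-8 stands at 8.82%, above every other library, and all HN6 libraries lie at or under 4.74%.

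Untreated HN6 cells carried less of most ribosomal protein mRNAs than untreated HN4 cells. edgeR's quasi-likelihood test with Benjamini-Hochberg adjustment called 41 of 79 members lower (34.7% of all genes were called lower) and 8 higher (32.4% of all genes). The median log2 difference was -0.41 over members and -0.03 over all genes, and it was -0.33 over the 60S proteins and -0.54 over the 40S proteins. RPS3 had 755, 629 and 730 CPM in untreated HN6 and 1809, 1718 and 1744 CPM in untreated HN4. The HN6 libraries lay below all HN4 libraries (log2 difference -1.33, SE 0.14, edgeR adjusted p = 1.05e-07). RPS6, the substrate of the S6 kinases, had 656, 633 and 667 CPM in HN6 and 1099, 1132 and 1125 CPM in HN4, again without overlap (-0.79, SE 0.09). RPL36, a 60S protein, had 167, 126 and 166 CPM in HN6 and 418, 373 and 420 CPM in HN4 (-1.41, SE 0.21).

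A few members ran the other way. The largest rise was that of RPS10, a gene of uncertain counts, with 3.96, 3.37 and 3.49 CPM in untreated HN6 and 1.38, 1.41 and 0.932 CPM in untreated HN4 (log2 difference 1.52). RPL7L1, a paralog tied to ribosome assembly, had 315, 326 and 318 CPM in untreated HN6 and 176, 166 and 158 CPM in untreated HN4, every HN6 library above every HN4 library (log2 difference 0.93, SE 0.07, edgeR adjusted p = 4.40e-09). RPS26, a protein at the mRNA exit, stood at 433, 420 and 441 CPM in HN6 and 245, 255 and 226 CPM in HN4 (0.82, SE 0.08). RPL5, which together with RPL11 binds and inhibits MDM2 when ribosome assembly fails, was also higher in HN6 (0.69, SE 0.07), while RPL11 differed by -0.03 (SE 0.19; edgeR adjusted p = 0.903).

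Against untreated HN6, untreated Cal27 was higher in 44 of 79 members (35.3% of all genes) and lower in 11 (33.1% of all genes), with a median log2 difference of 0.40 over members and 0.03 over all genes. The largest differences were those of RPL3L (3.50), near its limit of detection, RPL9 (2.00), whose reads are described below, and RPS3. RPS3 had 2336, 2071 and 2183 CPM in Cal27 and 755, 629 and 730 CPM in HN6 (log2 difference 1.67, SE 0.14, edgeR adjusted p = 5.46e-09). RPSA, a 40S protein also described as a laminin receptor, went the other way, with 686, 675 and 684 CPM in Cal27 and 1158, 1116 and 1147 CPM in HN6 (-0.71, SE 0.17). No library of either gene crossed into the other line's range. RPS10 (-1.08), RPL26 (-0.88) and RPL17 (-0.74) were also lower in Cal27, and all of them share over 40% of their exon length with another gene on the same strand.

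Untreated Cal27 and untreated HN4 differed in both directions, with 26 members higher (32.2% of all genes) and 17 lower (31.4% of all genes) and a median of 0.02 over members and 0.00 over all genes. The largest rises were those of RPL3L (1.93), a gene of few reads, and RPL9, followed by RPL35A. RPL35A, a 60S protein mutated in some Diamond-Blackfan anaemia, had 928, 798 and 955 CPM in Cal27 and 457, 390 and 430 CPM in HN4 (log2 difference 1.09, SE 0.10, edgeR adjusted p = 3.16e-08). RPL14 had 308, 281 and 261 CPM in Cal27 and 630, 648 and 612 CPM in HN4 (-1.13, SE 0.07, adjusted p = 2.81e-10). RPL8, a 60S protein near the peptidyl transferase centre, had 885, 707 and 763 CPM in Cal27 and 2044, 1997 and 2144 CPM in HN4 (-1.37, SE 0.20). The groups of these genes did not overlap.

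In the plasmid experiment the same line comparisons gave 6 members higher (34.7% of all genes) and 44 lower (34.6%) in vector HN6 against HN4 labelled vector. Vector Cal27 against HN4 labelled vector gave 32 higher (35.6%) and 24 lower (36.1%), a split that moved to 37 and 18 with library-size scaling and to 40 and 14 with upper-quartile scaling, which put the median of all genes at 0.17. Vector Cal27 against vector HN6 gave 50 higher (36.7%) and 11 lower (36.6%). RPS3 was -1.37 in HN6 against HN4 and 1.66 in Cal27 against HN6, and RPL14 was -1.24 in Cal27 against HN4. RPL22L1 was -0.89 in vector HN6 against HN4 labelled vector and -0.10 in untreated HN6 against untreated HN4, where it did not pass the test. The spread of replicate 3 of Cal27 with IL-8 enters the shared fit of the untreated comparisons. Without that library, 62 members were called in untreated HN6 against HN4 (73.8% of all genes). The counts were 65 in untreated Cal27 against HN6 (75.3%) and 62 in untreated Cal27 against HN4 (71.9%).

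Where a member lies in the genome went with its difference between lines; this was looked at after the values were seen. For each member the median log2 difference of the other protein-coding genes within 5 Mb was taken. Over 79 members it correlated with the member's own difference at Pearson's r = 0.66 and Spearman's rho = 0.67 for untreated Cal27 against HN4, 0.60 and 0.70 for HN6 against HN4, and 0.62 and 0.68 for Cal27 against HN6. These are descriptions with no p, since members near each other share neighbours and all points share their libraries. RPL14, RPL15, RPL29, RPL32 and RPSA all lie in the first 90 Mb of chromosome 3, on the short arm; all were lower in Cal27 than in HN4 (median -0.98), and the median of 364 other genes there was -0.89. RPL8 differed by -1.37 with 78 neighbours at -1.83, and RPS25, a 40S protein on chromosome 11, by -0.94 with 62 neighbours at -1.05. On the rest of chromosome 3, RPL35A (1.09, neighbours 0.62) and RPL39L (1.03, neighbours 0.62) were higher in Cal27. RPS28 did not follow its neighbours (-1.96 against -0.13), and neither did RPL3, a 60S protein, in HN6 against HN4 (-1.11, neighbours 0.00).

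**Figure D2:**
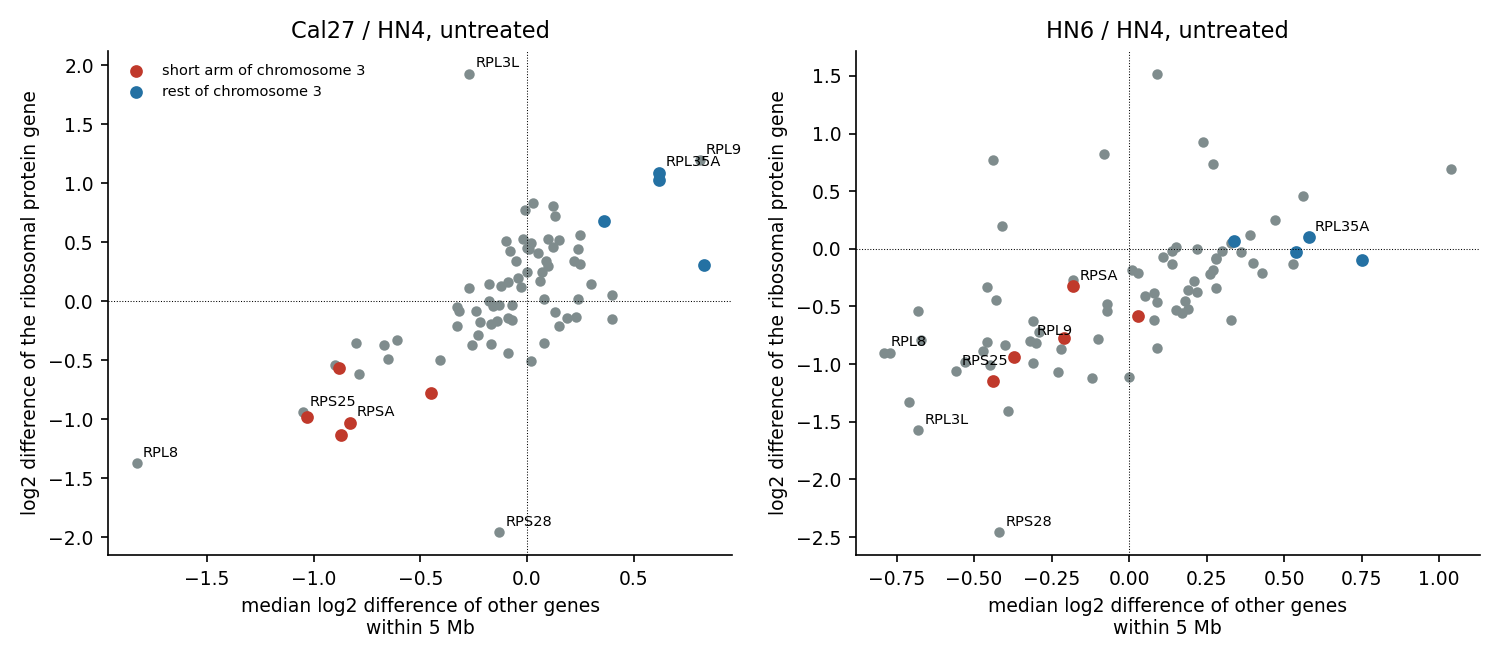
Each point is a ribosomal protein gene, with the median log2 difference of the other protein-coding genes within 5 Mb on the x axis and its own log2 difference on the y axis, for untreated Cal27 over untreated HN4 (left) and untreated HN6 over untreated HN4 (right). In the left panel the members on the short arm of chromosome 3 (red, -1.13 to -0.57) and RPL8 (-1.37) lie at the lower left beside their neighbours, and RPS28 (-1.96) lies apart.

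The largest fall against HN4 in both lines, that of RPS28, depended on where reads were assigned. RPS28 (chr19:8321158-8323340) had 90.9, 69.3 and 58.5 CPM in untreated Cal27, 56.2, 48.8 and 52.5 CPM in untreated HN6, and 248, 302 and 309 CPM in untreated HN4. Its processed copy RPS28P7 had 364, 221 and 245 CPM in Cal27, 195, 142 and 187 CPM in HN6, and 169, 191 and 207 CPM in HN4, so the pseudogene carried most of the pair's reads in Cal27 and HN6 and the parent most of them in HN4. With the counts of its pseudogenes added, the log2 difference of RPS28 in HN6 against HN4 was -1.08 in place of -2.46 (edgeR adjusted p = 0.000318), and that in Cal27 against HN4 was -0.42 in place of -1.96 and no longer passed (adjusted p = 0.1). RPL9 (chr4:39452521-39458949), a 60S protein, had 564, 588 and 607 CPM in untreated Cal27, 143, 149 and 157 CPM in HN6, and 269, 263 and 243 CPM in HN4, while RPL9P9 had 932, 906 and 941 CPM in Cal27, 227, 220 and 233 CPM in HN6, and 439, 444 and 415 CPM in HN4. With the pseudogenes added its difference was 2.04 in place of 2.00 in Cal27 against HN6, and 1.15 in place of 1.2 in Cal27 against HN4. Over all libraries pseudogene counts were 181% of the parent's own in RPS10, 170% in RPL9 and 152% in RPS28, and 8 of 80 members had a ratio over 10%.

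**Figure D3:**
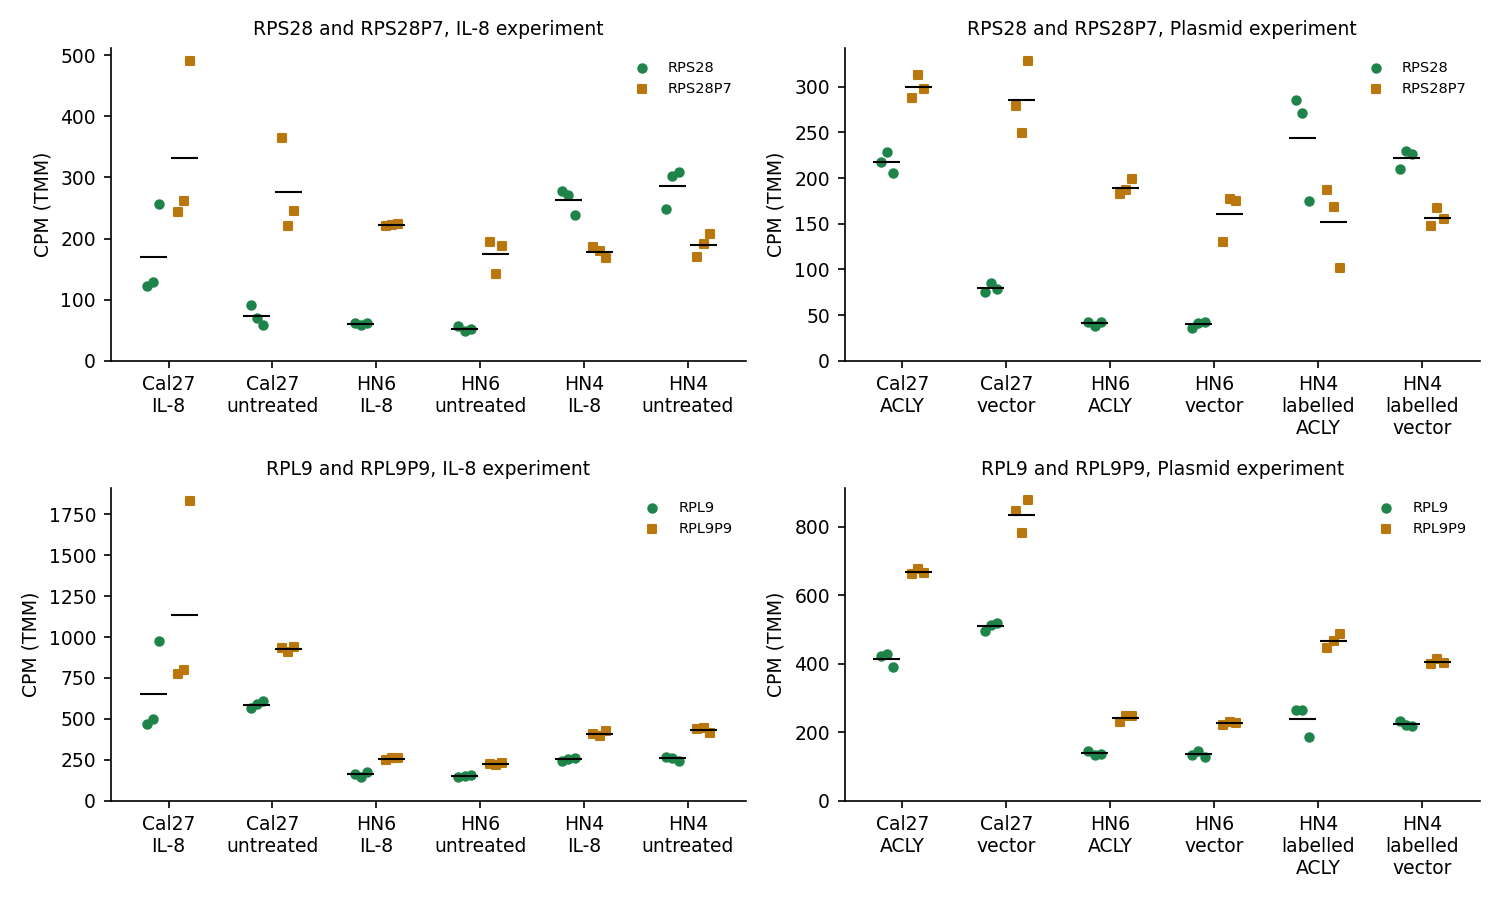
CPM with TMM scaling of RPS28 and RPS28P7 (top) and RPL9 and RPL9P9 (bottom) in each library of both experiments (points; line, mean of 3). RPS28 lies under RPS28P7 in untreated Cal27 and HN6 and above it in untreated HN4, and RPL9P9 lies above RPL9 in all groups.

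With IL-8, few members passed the test in HN4 and HN6 and more in Cal27. In HN4, edgeR called 2 of 79 members higher (6.89% of all genes) and 0 lower (7.09% of all genes; 1 member was lower at an unadjusted p under 0.05, and DESeq2 called 2 members, both higher). In HN6, 2 were higher (7.61% of all genes) and 2 lower (7.81% of all genes). In Cal27, 34 were higher (22.7% of all genes) and 1 lower (16.7% of all genes). The median log2 change was 0.29 over members in Cal27, 0.12 in HN6 and -0.03 in HN4, beside 0.00, 0.00 and -0.01 over all genes.

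These counts turned on replicate 3 of Cal27 with IL-8, which also enters the shared spread. Without it, Cal27 had 20 members higher (23.6% of all genes) and 9 lower (18.1%), with a median of 0.05, and 21 of the first 35 members were called in both. HN6 then had 29 higher (15.1%) and 3 lower (17.6%), and HN4 6 higher (16.4%) and 9 lower (13.9%). In HN6, 70 of 79 members had a positive change, and the median stayed at 0.12 without that library. Scaling by library size gave 6 higher and 1 lower in HN6, and upper-quartile scaling 4 higher and 1 lower, with member medians of 0.17 under both.

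In HN4 the called members were RPL22L1 and RPS26. RPS26 had 313, 303 and 320 CPM with IL-8 and 245, 255 and 226 CPM in untreated HN4. Every IL-8 library was above every untreated one (log2 change 0.37, SE 0.08, edgeR adjusted p = 0.00467). In HN6 the higher members were RPS18 (909, 907 and 942 CPM with IL-8, 781, 664 and 764 CPM untreated; 0.33, SE 0.09) and RPL27 (623, 638 and 618 CPM with IL-8, 539, 455 and 520 CPM untreated; 0.32, SE 0.09). Their groups did not overlap in HN6, and the changes of RPS18 in Cal27 (-0.04) and HN4 (-0.19) did not pass the test. The lower members in HN6 were the paralogs RPL22L1 and RPL7L1.

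In Cal27 the largest rises were those of RPS28, RPS10 (1.03; 0.25 and adjusted p = 0.319 with its pseudogenes added, by edgeR), RPL8 and RPSA, and RPS7 was the member that fell (-0.18, edgeR adjusted p = 0.0284). RPS28 had 122, 129 and 256 CPM with IL-8 and 90.9, 69.3 and 58.5 CPM in untreated Cal27, without overlap (log2 change 1.21, SE 0.22; 0.76 without replicate 3). With its pseudogenes added the change was 0.51 and did not pass (adjusted p = 0.0722). RPL8 had 1174, 1137 and 2380 CPM with IL-8 and 885, 707 and 763 CPM in untreated Cal27 (log2 change 0.99, SE 0.20, edgeR adjusted p = 0.00106). RPSA had 919, 946 and 1789 CPM with IL-8 and 686, 675 and 684 CPM untreated (0.83, SE 0.17). Replicate 3 was the highest library of both genes and no IL-8 library reached down to the untreated ones; without it the changes were 0.54 and 0.43 and stayed past the threshold. RPL14 differed less between its IL-8 libraries, at 421, 378 and 413 CPM, against 308, 281 and 261 CPM untreated (0.50; 0.47 without replicate 3). RPL11 had 866, 929 and 1855 CPM with IL-8 and 947, 955 and 1064 CPM untreated, so its IL-8 libraries lay on both sides of the untreated ones. RPL9 and RPL11 were among the members called lower once replicate 3 was left out (-0.30 and -0.16). With IL-8 in Cal27, 27 of the 35 called members (77.1%) moved towards the HN4 level, as read from the vector libraries of the other experiment, beside 94.0% of the 7194 called genes with a value in both experiments.

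With the ACLY plasmid, 44 members were higher in Cal27 (34.2% of all genes) and 2 lower (29% of all genes), 4 were higher in HN6 (26.8%) and 17 lower (24.9%), and 22 were higher (18.9%) and 9 lower (19.1%) in HN4 labelled ACLY against HN4 labelled vector. ACLY stood at 1857 to 1934 CPM against 218 to 242 CPM in Cal27 and at 2137 to 2251 CPM against 265 to 274 CPM in HN6, plasmid before vector. The member median was 0.25 in Cal27, -0.05 in HN6 and 0.06 in the HN4 comparison, beside 0.03, 0.04 and 0.01 over all genes. The HN6 median became 0.00 with library-size scaling and 0.01 with upper-quartile scaling, and the split of calls 8 higher and 14 lower, or 7 and 13. In Cal27 library-size scaling gave 31 higher and 6 lower and upper-quartile scaling, which put the median of all genes at -0.11, 26 higher and 12 lower. In HN4 upper-quartile scaling gave 28 higher and 6 lower.

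**Figure D4:**
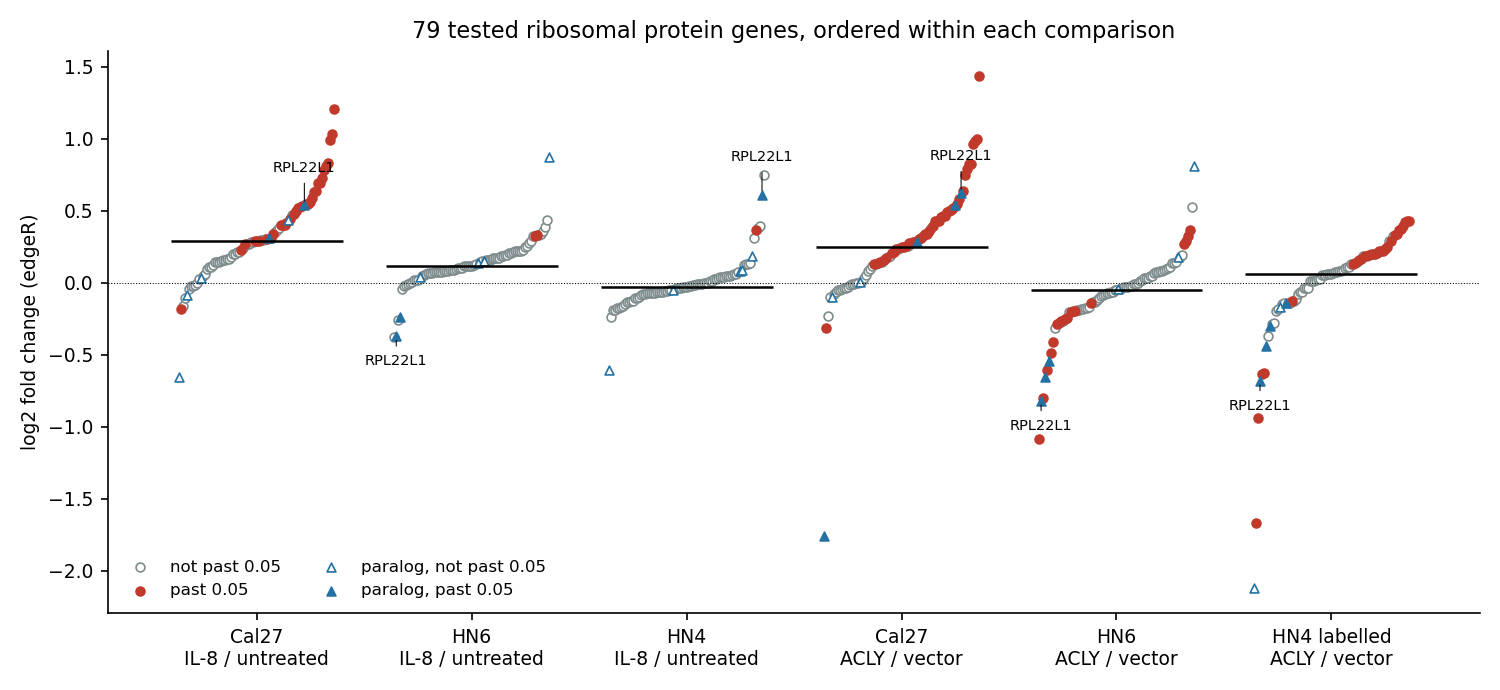
Log2 fold change of the 79 tested members in each treatment comparison, ordered from lowest to highest within it (circles; triangles for paralogs; filled where the edgeR adjusted p is under 0.05; line, median). For Cal27 the median is 0.25 with the ACLY plasmid and 0.29 with IL-8, and it lies between -0.05 and 0.12 elsewhere.

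In Cal27 the largest rises were those of RPS28, RPL8 and RPL14. RPS28 had 218, 229 and 205 CPM with the plasmid and 75.8, 84.9 and 78.7 CPM with vector (log2 change 1.43, SE 0.14, edgeR adjusted p = 1.13e-06), and 0.49 with its pseudogenes added (adjusted p = 0.0199). RPL8 had 1598, 1626 and 1541 CPM with the plasmid and 806, 704 and 857 CPM with vector (log2 change 1.00, SE 0.06, edgeR adjusted p = 5.30e-16). RPL14 had 571, 563 and 549 CPM with the plasmid and 251, 280 and 311 CPM with vector (0.99, SE 0.13), and RPSA 1094, 1098 and 1059 CPM and 632, 619 and 667 CPM (0.75, SE 0.04). The groups of these genes did not overlap, and all 4 were lower in Cal27 controls than in HN4 by their own counts. For RPS28, vector Cal27 against HN4 labelled vector was -1.47. It was -0.045 with its pseudogenes added and did not pass (edgeR adjusted p = 0.8225). RPL9 was lower, at 422, 427 and 391 CPM with the plasmid and 496, 514 and 519 CPM with vector (-0.32, SE 0.10). Of the 46 called members, 36 (78.3%) moved towards the HN4 level, as read from the untreated libraries, beside 86.4% of 11580 such genes. Around RPL8 the 77 neighbours had a median change of 1.33 with the plasmid, and the 5 members on the short arm of chromosome 3 had a median of 0.75 beside 0.56 over 365 other genes there. How far the HN4 genes read in these libraries account for the members' changes was not tested.

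With the plasmid in HN6, 24.9% of all genes passed the test as lower and 26.8% as higher. Beside these shares, 9 of 43 60S proteins were lower, 5 of 30 40S proteins were lower and 4 higher, and 3 of 6 tested paralogs were lower. Whether the subunits differ was not tested. The members that were higher were the 40S proteins RPS29 (log2 change 0.37), RPS21 (0.32), RPS13 (0.29) and RPS12 (0.27). RPS13 had 419, 450 and 437 CPM with the plasmid and 343, 386 and 341 CPM with vector. All its plasmid libraries were above the vector ones (SE 0.05, edgeR adjusted p = 1.54e-05). RPL5 had 1066, 1102 and 1132 CPM with the plasmid and 1272, 1285 and 1244 CPM with vector, without overlap (-0.20, adjusted p = 0.0102). Without replicate 3 of HN4 labelled ACLY in the fit, HN6 had 9 members higher (27.6%) and 29 lower (25.8%), and RPS29 no longer passed (adjusted p = 0.0604).

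RPS10 (log2 change -0.80 in HN6 and 0.82 in Cal27 with the plasmid) shares 77.02% of its exon length with RPS10-NUDT3, and its changes became 0.17 and -0.17 when pseudogene counts were added, neither past the threshold.

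Between HN4 labelled ACLY and HN4 labelled vector the higher members included RPS19 (0.42), RPL13 (0.43), RPS29 (0.43) and RPS6 (0.19), and the lower ones included RPS10 (-1.67; -0.32 with its pseudogenes added, no longer past the threshold), RPL22L1, RPL17 (-0.64) and RPS26. RPS26 had 215, 240 and 119 CPM in HN4 labelled ACLY and 307, 313 and 272 CPM in HN4 labelled vector (log2 difference -0.63, SE 0.18, edgeR adjusted p = 0.0140). The groups did not overlap, and replicate 3 of HN4 labelled ACLY was the lowest library. Without that library the difference was -0.38, 39 members were higher (18.2%) and 7 lower (19.3%), and 27 of 31 calls were shared. The RPS26 difference has the opposite sign to that of IL-8 in HN4, as ACLY itself has.

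RPL22L1 (chr3:170864875-170870483, minus strand) passed the threshold in all 6 treatment comparisons, more than any other paralog. In Cal27 it had 68.6, 72.1 and 84.4 CPM with IL-8 and 51.5, 52.0 and 50.3 CPM untreated (log2 change 0.54, SE 0.09, edgeR adjusted p = 0.000118), a rise in all libraries. In HN6 it had 27.3, 32.2 and 31.3 CPM with IL-8 and 39.5, 40.1 and 38.8 CPM untreated (-0.37, SE 0.09, adjusted p = 0.00799), a fall without overlap. In HN4 it had 66.8, 61.0 and 64.3 CPM with IL-8 and 43.4, 42.3 and 40.2 CPM untreated (0.61, SE 0.09, adjusted p = 0.000174). The response differed among lines (edgeR test of both interaction terms, adjusted p = 1.06e-05).

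In the plasmid experiment RPL22L1 had 71.8, 80.5 and 76.1 CPM in Cal27 with the plasmid and 45.4, 51.1 and 50.9 CPM with vector (log2 change 0.62, SE 0.08). In HN6 it had 18.6, 20.5 and 21.2 CPM with the plasmid and 35.3, 36.2 and 35.3 CPM with vector (-0.82, SE 0.09, edgeR adjusted p = 1.66e-09). HN4 labelled ACLY held 43.6, 45.5 and 33.6 CPM and HN4 labelled vector 65.1, 70.2 and 62.5 CPM (-0.68, SE 0.08). None of these groups overlapped. The edgeR test of both interaction terms gave adjusted p = 2.85e-13. It took HN4 as labelled, so it cannot be read as a difference in response to ACLY that includes HN4. RPL22L1 stood at 61.0 to 70.2 CPM in the HN4 groups with 1332 to 1515 CPM of ACLY, and at 33.6 to 45.5 CPM in the HN4 groups with 314 to 380 CPM of ACLY. In HN6 the group with most ACLY had the least RPL22L1.

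RPL22, the parent, moved less. In Cal27 it had 226, 245 and 296 CPM with IL-8 and 197, 192 and 228 CPM untreated, groups that overlapped (log2 change 0.30, SE 0.10, edgeR adjusted p = 0.0208; 0.175 without replicate 3). With the ACLY plasmid it had 239, 239 and 228 CPM in Cal27 and 182, 160 and 203 CPM with vector (0.36, SE 0.07), and in HN6 176, 182 and 184 CPM with the plasmid and 213, 238 and 210 CPM with vector (-0.28, SE 0.07), without overlap. In the other 3 comparisons its change lay between 0.04 and 0.08 and did not pass. RPL22 and RPL22L1 had the same sign in all of the treatment comparisons in which both passed. Between lines, both passed with opposite signs in vector Cal27 against vector HN6 (RPL22 -0.27, RPL22L1 0.47). In the fit without replicate 3 of HN4 labelled ACLY, both passed as lower in vector Cal27 against HN4 labelled vector (-0.34 and -0.42). In the fit without replicate 3 of Cal27 with IL-8, both passed with opposite signs in untreated Cal27 against untreated HN4 (-0.18 and 0.30).

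**Figure D5:**
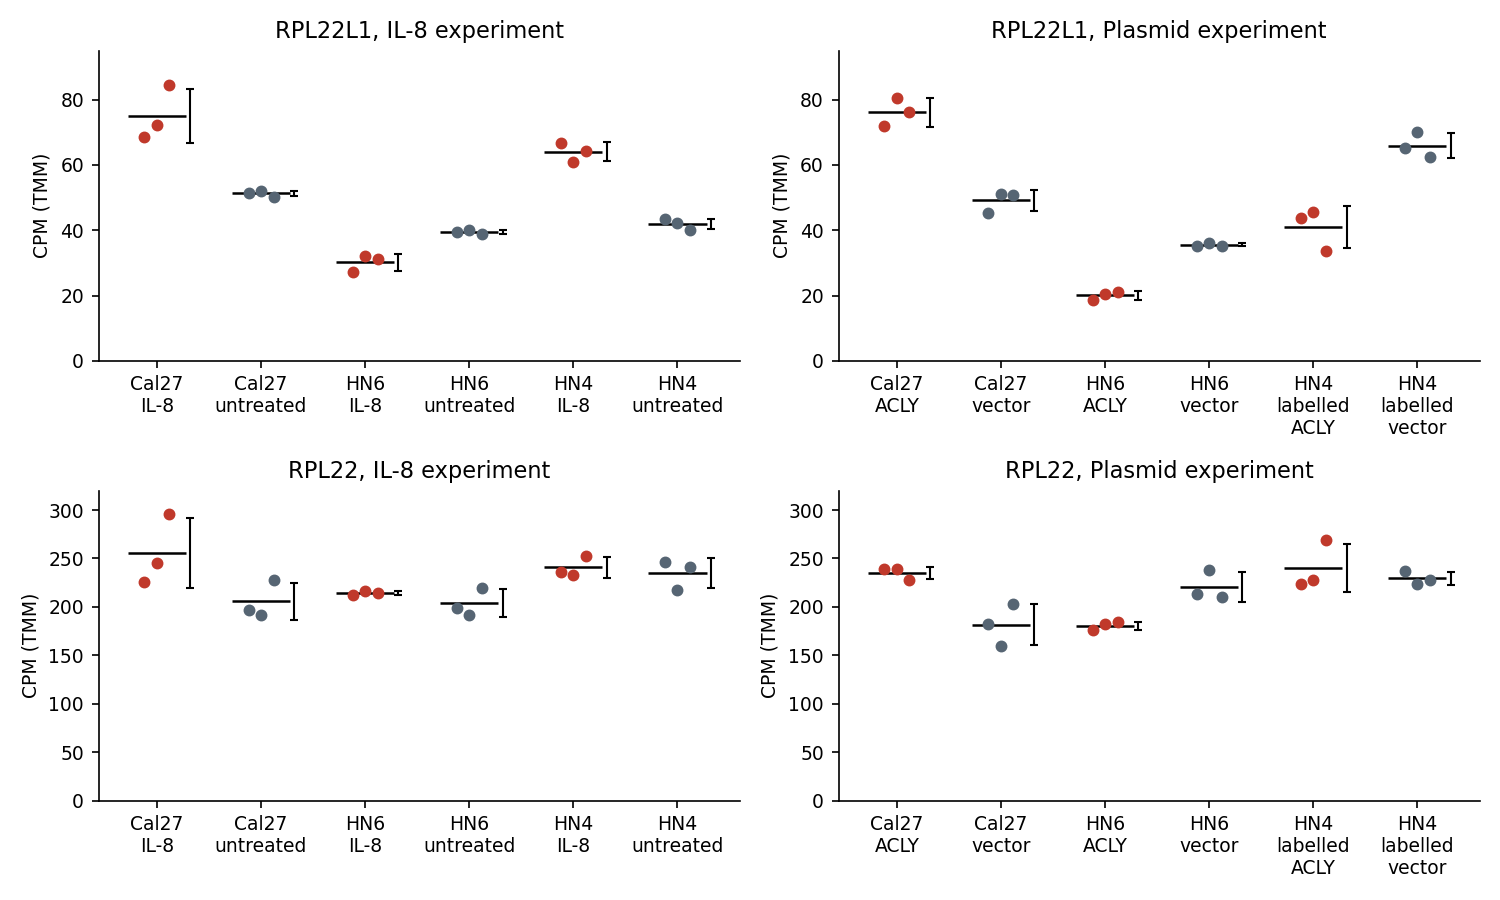
CPM with TMM scaling of RPL22L1 (top) and RPL22 (bottom) in each library (points; red with IL-8 or ACLY plasmid, grey untreated or vector; line, mean; bar, SD, n = 3). RPL22L1 is higher with IL-8 in Cal27 and HN4 and lower in HN6, and with the plasmid it is at 18.6 to 21.2 CPM in HN6, the lowest of the 12 groups.

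RPL7L1 had 180, 183 and 191 CPM in HN6 with the ACLY plasmid and 316, 282 and 277 CPM with vector, every plasmid library below every vector library (log2 change -0.66, SE 0.05, edgeR adjusted p = 3.62e-13). With IL-8 in HN6 it had 273, 260 and 275 CPM, against 315, 326 and 318 CPM untreated (-0.24, SE 0.07). In Cal27 its changes were -0.08 with IL-8 and 0.01 with the plasmid and did not pass. RPL39L had 11.9, 10.9 and 10.2 CPM in HN6 with the plasmid and 13.9, 17.6 and 16.5 CPM with vector (-0.54, SE 0.11, without overlap). RPL26L1 was lower in HN4 labelled ACLY than in HN4 labelled vector (-0.44; -0.26 without replicate 3) and higher in Cal27 with the plasmid (0.28). RPL3L passed only in Cal27 with the plasmid among treatments, at 0.214, 0.0503 and 0.4 CPM, against 0.597, 1.06 and 0.572 CPM with vector (edgeR adjusted p = 0.0186), levels of a few reads.

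RPS27L, a target of p53, is given beside CDKN1A and MDM2, the p53 targets that arrest the cell cycle and degrade p53. In Cal27 RPS27L had 51.6, 50.7 and 55.2 CPM with the ACLY plasmid and 33.5, 35 and 39.1 CPM with vector, without overlap (log2 change 0.54, SE 0.10, edgeR adjusted p = 4.51e-05), and CDKN1A changed by 1.99 and MDM2 by 2.14. With IL-8 in Cal27 the changes were 0.31 for RPS27L, 1.30 for CDKN1A and 1.73 for MDM2. Both p53 targets were lower in untreated Cal27 than in untreated HN4 (-2.57 and -2.96), as was RPS27L (-0.35). In HN6 with the plasmid CDKN1A rose by 1.02, the MDM2 change of 0.06 did not pass, and the RPS27L change of 0.18 did not pass (adjusted p = 0.168). In HN4 labelled ACLY against HN4 labelled vector CDKN1A (0.94) and MDM2 (0.16) were higher and RPS27L lower (-0.30; -0.16 and adjusted p = 0.118 without replicate 3).

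All 3 proteins of the P stalk were higher in Cal27 with the ACLY plasmid. RPLP0 had 2103, 2129 and 2074 CPM in Cal27 with the plasmid and 1887, 1865 and 1968 CPM with vector (log2 change 0.13), a small rise that turned to -0.02 with upper-quartile scaling. RPLP1 (0.42) and RPLP2 (0.51) were higher there as well, and in HN6 with the plasmid their changes of -0.01 (RPLP0), -0.03 (RPLP1) and -0.10 (RPLP2) did not pass. With IL-8, RPLP2 had 706, 705 and 1626 CPM in Cal27 and 626, 521 and 579 CPM untreated (0.81; 0.27 without replicate 3). RPS27A, made as a fusion with ubiquitin, was lower in HN6 with the plasmid (-0.25) and higher in HN4 labelled ACLY (0.34; 0.19 without replicate 3).

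By the edgeR test of both interaction terms, the response to IL-8 differed among the lines in 15 of 79 members (40.2% of all genes). The response to the plasmid, with HN4 compared as labelled, differed in 46 (70.9% of all genes). Without the library that stood apart these counts were 47 (54.4% of all genes) and 63 (71.2%). In the IL-8 experiment these members included RPL22L1, RPL7L1, RPL14, RPSA, RPL15, RPL29, RPL8, RPL34, RPS28, RPS18, RPS25, RPS10, RPS26 and RPS19.

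Members were also set out by whether they held the TOP motif. Within 5 bases of the first base, 49 tested members held the motif and 13 did not. The median change with IL-8 was 0.29 with the motif and 0.16 without it in Cal27, 0.13 and 0.06 in HN6, and -0.03 and 0.04 in HN4. With the ACLY plasmid it was 0.25 and 0.24 in Cal27 and -0.04 and -0.04 in HN6, and for HN4 labelled ACLY against HN4 labelled vector 0.08 and -0.13. The Cal27 medians with IL-8 include replicate 3, without which the median over all tested members was 0.05. Of 5 paralogs with a window, 1 held the motif, so the members without it also differ in their share of paralogs. Differences between members with and without the motif were not tested.

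Other genes of the same pathway were counted beside the members. In HN6 with the ACLY plasmid, where 24.9% of all genes were lower and 26.8% higher, most of those called were lower. Of 19 tested translation factors and related proteins with TOP mRNAs, 13 were lower and 1 higher there; NPM1, a nucleolar chaperone, fell by 0.83 on the log2 scale and TPT1 was the higher one (0.35). Of 11 noncoding TOP transcripts that host small nucleolar RNAs, 8 were lower, with SNHG15 at -1.28 and GAS5 at -0.67. Of 8 chaperones and assembly factors of ribosomal proteins, 7 were lower, among them GRWD1, the chaperone of RPL3 (-1.33), and LTV1, an assembly factor of the 40S subunit (-0.81). Of 12 regulators of TOP mRNAs, 8 were lower and 1 higher, with LARP1 at -0.71. Of 78 mitochondrial ribosomal proteins, 52 were lower and 1 higher, with a median of -0.31, beside 17 of 79 cytosolic members and a median of -0.05; whether these medians differ was not tested.

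In Cal27 most of the called genes of these lists were higher. In Cal27 with the plasmid, where 34.2% of all genes were higher and 29% lower, 12 translation factors were higher and 1 lower, 9 of 11 host transcripts all 8 chaperones and 9 of 12 TOP regulators were higher, and 56 mitochondrial ribosomal proteins were higher and 3 lower. In Cal27 with IL-8, where 22.7% of all genes were higher and 16.7% lower, 9 translation factors were higher and 1 lower, 7 host transcripts, 5 chaperones and 3 TOP regulators were higher, and 40 mitochondrial ribosomal proteins were higher and 1 lower. In HN4 with IL-8, where 6.89% of all genes were higher and 7.09% lower, 2 translation factors, 4 chaperones, 3 TOP regulators and 8 mitochondrial ribosomal proteins were higher. In HN6 with IL-8, where 7.81% of all genes were lower and 7.61% higher, 4 chaperones, 4 translation factors, 2 host transcripts, 2 TOP regulators and 2 mitochondrial ribosomal proteins were lower, and 1 TOP regulator and 1 mitochondrial ribosomal protein were higher. Between HN4 labelled ACLY and HN4 labelled vector, where 18.9% of all genes were higher and 19.1% lower, 5 translation factors were higher and 6 lower and 4 host transcripts were higher. In the same comparison 4 chaperones, 7 TOP regulators and 41 mitochondrial ribosomal proteins were lower and 1 mitochondrial ribosomal protein higher, beside 9 cytosolic members lower and 22 higher. Between untreated HN6 and untreated HN4, where 32.4% of all genes were higher and 34.7% lower, 7 of 8 chaperones were higher in HN6 (TSR2 1.60, GRWD1 1.19), and 32 mitochondrial ribosomal proteins were higher and 15 lower, with a median of 0.18 beside -0.41 over the cytosolic members.

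Of the 8 cytosolic ribosomal protein genes outside the choice, 5 were higher in Cal27 with the plasmid (34.2% of all genes) and 3 in Cal27 with IL-8 (22.7% of all genes). RPL36A, on the X chromosome, was lower in HN4 labelled ACLY than in HN4 labelled vector (-1.47) and lower in HN6 with the plasmid (-0.49), and higher in Cal27 with the plasmid (1.10). RACK1, which sits on the head of the 40S subunit, fell by 0.36 in HN6 with the plasmid. FAU was higher in untreated Cal27 than in untreated HN4 (1.11).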

How the data were processed

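The deposited table held whole-number read counts for 58735 genes in 36 libraries of polyadenylated RNA, with hg38 coordinates and gene lengths per the file headers. The submitters' processing notes name CASAVA, the aligner HISAT2 2.0.5, the counter featureCounts 1.5.0-p3, DESeq2 and the build hg38. How reads mapping to several places were counted, the strand setting and the annotation version are not given in the sources used here. Antisense and near-identical genes can therefore share counts.

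From the counts, CPM were computed with TMM factors over all 36 libraries. Levels between genes were divided by the length of the principal GENCODE 29 transcript, in place of the TPM planned, because the deposited length covers all exons of a gene. Tests used edgeR 4.0.16 (R 4.3.3): filterByExpr with a minimum count of 10 and total of 15, TMM, robust quasi-likelihood F tests, 6 groups of 3 per experiment with 12 residual degrees of freedom, and Benjamini-Hochberg adjustment over all genes tested (18398 in the IL-8 and 18556 in the plasmid experiment) at 0.05. Log2 changes carry their standard errors. The limit that a count of 0 allows covers counting error only.

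The edgeR test of IL-8 against untreated HN4 was also run on simulated data. Alternatives were DESeq2 1.42.0, other scalings, no filter, each library left out, a replicate block, the compared groups alone, and pseudogene counts added.

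The members, gene lists and tests were chosen with earlier results of these data known. Genes named were every paralog and its parent, RPLP0, RPLP1, RPLP2, RPL5, RPL11, RPS6, RPS27A, RPSA, and the 3 called members with the largest rise and fall per comparison. Other members were named after their values were seen, and some that the rule names are not reported here. Replicate numbers were not used to pair libraries in the main tests.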

Additional observations from a re-analysis of the deposited data

Results flagged for a closer look

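By edgeR's test of both interaction terms, the response to IL-8 differed among the lines in 15 of 79 members (40.2% of all genes). Among those named, the adjusted p was 1.06e-05 for RPL22L1, 0.00561 for RPS28, 0.00635 for RPS18, 0.0109 for RPL7L1, 0.0248 for RPSA, 0.025 for RPL8 and 0.0352 for RPS26. RPL22L1 was higher with IL-8 in Cal27 (0.54) and HN4 (0.61) and lower in HN6 (-0.37).

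The response to the plasmid differed among the lines in 46 of 79 members (70.9% of all genes), with HN4 compared as labelled. The edgeR adjusted p was 1.04e-15 for RPL8, 1.04e-14 for RPSA, 2.85e-13 for RPL22L1, 1.06e-09 for RPL7L1, 3.87e-05 for RPL14, 4.74e-05 for RPS27L and 5.76e-05 for RPS28.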

How the results depend on the processing

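Counts of called members depended most on single libraries and on which groups shared the estimate of spread. With each library left out in turn, they ran from 16 to 53 (IL-8 in Cal27), 1 to 32 (IL-8 in HN6), 2 to 15 (IL-8 in HN4), 8 to 47 (response to IL-8 differing among lines), 33 to 54 (plasmid in Cal27), 16 to 38 (plasmid in HN6), 25 to 46 (HN4 labelled ACLY against HN4 labelled vector), 42 to 63 (response to the plasmid differing among lines), 38 to 62 (untreated Cal27 against HN4), 49 to 65 (untreated Cal27 against HN6), 43 to 62 (untreated HN6 against HN4), 49 to 62 (vector Cal27 against HN4), 58 to 67 (vector Cal27 against HN6) and 46 to 59 (vector HN6 against HN4). IL-8 in Cal27 gave 53 calls without IL-8 replicate 1, 16 without untreated replicate 2 and 21 without untreated replicate 3. IL-8 in HN6 gave 1 without untreated replicate 2, IL-8 replicate 1 or IL-8 replicate 3, and 2 without IL-8 replicate 2. The members differing in response to IL-8 were 8 and 9 without untreated Cal27 replicates 2 and 3, and 35, 32 and 47 without Cal27 IL-8 replicates 1, 2 and 3. Shares of all genes called also changed between fits. Without Cal27 IL-8 replicate 3, the IL-8 shares higher and lower went from 7.61% and 7.81% to 15.1% and 17.6% in HN6. They went from 6.89% and 7.09% to 16.4% and 13.9% in HN4, and from 22.7% and 16.7% to 23.6% and 18.1% in Cal27. Shares for the other libraries left out are not reported here.

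With the compared groups fitted alone, IL-8 gave 29 calls in HN4 (11 higher, 18 lower; 21.7% and 20.1% of all genes), 40 in HN6 (37 higher, 3 lower; 18.7% and 19.9%) and 3 in Cal27, all higher (8.94%). The plasmid gave 37 in HN6 (6 higher, 31 lower; 29.8% and 31.1% of all genes). With no filter, IL-8 gave 4 in HN4 and 10 in HN6, and 35 members differed in response to IL-8. Library-size scaling split the IL-8 calls in HN4 as 2 higher and 1 lower. IL-8 in HN6 gave 7 with library-size scaling and 7 with DESeq2, and IL-8 in Cal27 gave 21 with upper-quartile scaling. Shares of all genes called with no filter, other scalings or DESeq2 are not reported here. Member counts under those settings, here and above, therefore cannot be set against all genes. Directions reversed for RPS10 with pseudogenes added (0.083 in untreated Cal27 against HN6, 0.17 with the plasmid in HN6, -0.17 with the plasmid in Cal27, 0.32 in vector Cal27 against HN6 and 0.75, past the threshold, in vector Cal27 against HN4 labelled vector), and with upper-quartile scaling for RPLP0 with the plasmid in Cal27 (-0.02) and RPLP1 in vector Cal27 against HN4 labelled vector (0.032). The causes were not tested.

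Same-numbered replicates deviated together by correlations of -0.149 to 0.141, and in no comparison were all over 0.1. The main tests therefore did not pair libraries by number, though this check cannot exclude a pairing. With a replicate block IL-8 gave 34 calls in Cal27, 6 in HN6 and 2 in HN4, and the plasmid 45 in Cal27, 21 in HN6 and 31 in the HN4 comparison. The shares of all genes called with that block are not reported here.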
